A study of Mus musculus with 123 samples.

Results

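The genes described here are those whose transcript level responded differently to loss of Oct4 and to loss of Sox2 in the early inner cell mass (ICM) of the mouse blastocyst. They were taken with 1 contrast: for each gene, the difference between Oct4-KO and its Ctrl minus the difference between Sox2-KO and its Ctrl, called the interaction below, on the log2 scale. A negative interaction means that the Oct4-KO effect lay below the Sox2-KO effect. The contrast compared 32 of the 123 embryos of the series, 8 in each of 4 groups, and called 776 of 14053 genes tested. A call needed 2 things: an adjusted p (Benjamini-Hochberg) under 0.05, and a log2 difference of 1 or more in either direction.

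The embryos of the Oct4 line came from Oct4 flox/flox; ZP3-Cre mothers and Oct4 +/mKO2 fathers, and those of the Sox2 line from Sox2 flox/flox; ZP3-Cre mothers and Sox2 +/EGFP fathers. ZP3-Cre acts in the growing oocyte, so the maternal allele was deleted in every embryo of both groups of a line. KO embryos had inherited the paternal allele marked with mKO2 or EGFP and lacked the factor from mother and embryo. Ctrl embryos had inherited the intact paternal allele and were maternal KOs, not wild type. Both reporters were driven by the PGK promoter, and all alleles were derived from targeted ES cells. Embryos were collected at E2.5 from superovulated females and cultured to the early blastocyst stage, E3.75, with 1 µM PD0325901, a MEK inhibitor that suppresses primitive endoderm (PE) formation and was present in all 4 groups. The outer trophectoderm (TE) was removed by immunosurgery, and each remaining ICM made 1 library. Other stages of both lines are also used below: morulae of E2.75, which had no PD0325901, and late ICMs of E4.5, which had 1 µM. The labels give no litter, so the p-values measure the spread between embryos, some of which may be litter mates.

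Oct4, encoded by Pou5f1, is a POU-domain factor that binds an octamer motif, and Sox2 is an HMG-box factor that binds a short SOX motif. In embryonic stem cells both often bind side by side on a composite OCT-SOX motif, and both are needed for the epiblast (EPI), the ICM lineage that forms the fetus. Oct4 is also made in PE precursors, and both factors restrain trophoblast genes in the pluripotent lineage.

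Each library held 775085 to 1051677 molecules counted by unique molecular identifiers (UMIs), with 12716 to 13862 genes detected. The values below are CPM, UMI counts scaled to a common total per embryo, by which levels are compared between embryos and not between genes. On the first principal component, along which all 32 morulae lay below all early ICMs, Oct4-KO lay at -14.5 to -3.54 and its Ctrl at 2.84 to 22.9, while Sox2-KO lay at 15.8 to 26 and its Ctrl at 5.74 to 31.6. The Sox2 Ctrl embryo numbered 2 stood lowest in its group and the Oct4 Ctrl embryo numbered 9 highest in its own. The Ctrl groups differed from each other in 1397 genes (9.94% of those tested), 643 higher and 754 lower in the Oct4 line, so an interaction can go with a difference between Ctrl groups as well as between KO groups. The 7 epiblast markers summed to 1259 to 2107 CPM in Oct4 Ctrl, 883 to 1328 CPM in Oct4-KO, 1158 to 2900 CPM in Sox2 Ctrl and 963 to 1336 CPM in Sox2-KO, with 6 of 7 called lower in Oct4-KO (6.11% of all genes), 5 in Sox2-KO (1.69%) and 3 with a negative interaction (3.42%). The 5 oocyte genes summed to 1.22 to 17.3 CPM. The 10 TE markers summed to 361 to 1409 CPM in Oct4 Ctrl, 917 to 1575 CPM in Oct4-KO, 185 to 625 CPM in Sox2 Ctrl and 474 to 1990 CPM in Sox2-KO. Of these 10, 3 were called higher and 1 lower in Oct4-KO (4.77% and 6.11% of all genes), 4 higher and none lower in Sox2-KO (1.57% and 1.69%), and 2 had a positive and 1 a negative interaction (2.11% and 3.42%). At the median, epiblast marker transcripts were thus lower and TE marker transcripts higher in both KO groups, and their part in the results below was not tested. In whole ICMs, fewer cells of a type and less RNA per cell cannot be told apart.

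The targeted genes separated the groups in the line where each was deleted. Pou5f1 (chr17:35506018-35510772, mm10) was measured at 58.3 to 93.6 CPM (median 84.6) in Oct4 Ctrl and at 0 to 4.73 CPM (median 0.52) in Oct4-KO. In the Sox2 line it stood at 40.5 to 88.6 CPM (median 53.7) in Ctrl and 40.1 to 73.8 CPM (median 47.6) in Sox2-KO. The Pou5f1 levels of Sox2-KO and its Ctrl overlapped almost fully. Sox2 (chr3:34650405-34652461) was at 72.6 to 194 CPM (median 94) in Sox2 Ctrl and 7.74 to 36.4 CPM (median 24.3) in Sox2-KO, and at 85.1 to 190 CPM (median 132) in Oct4 Ctrl and 90.3 to 297 CPM (median 135) in Oct4-KO. The Sox2 groups did not overlap, but some Sox2 transcript remained in every Sox2-KO embryo, and the Sox2 effect of Oct4-KO was 0.31 ± 0.27 (SE, adjusted p = 0.446). The 3′ loxP site of the floxed Sox2 allele lies after the coding sequence, and counts per gene do not show on which side of it the remaining UMIs lie.

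Of the 776 interaction genes (5.52% of those tested), 480 were lower (3.42%) and 296 higher (2.11%) in the Oct4-KO contrast relative to the Sox2-KO contrast, and the log2 interaction ran from -8.32 to 6.93. Oct4-KO called 859 genes lower (6.11%) and 670 higher (4.77%), and Sox2-KO called 238 lower (1.69%) and 221 higher (1.57%). Crossing the 3 calls gave 314 genes lower in Oct4-KO with no call in Sox2-KO, 144 higher in Oct4-KO, 35 lower in Sox2-KO and 41 higher in Sox2-KO, 534 line-specific genes in all. Another 16 genes moved in opposite directions in the 2 lines, 15 moved in the same direction by unequal amounts, and 211 had an interaction with neither KO effect called. A gene counted as line-specific may still have moved in the other line by less than could be called. The 95% interval of the other line's effect lay within 1 log2 unit of 0 for 167 of the 314, 50 of the 144, 17 of the 35 and 5 of the 41. By contrast, 158 genes were called in the same direction in both lines with no interaction, 102 lower and 56 higher. A stricter test, of whether the interaction itself exceeded 1 log2 unit, called 104 genes, 88 lower and 16 higher. For 121 of the 776 (15.6%) the Ctrl groups also differed by a call, and for 655 they did not.

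**Figure D1:**
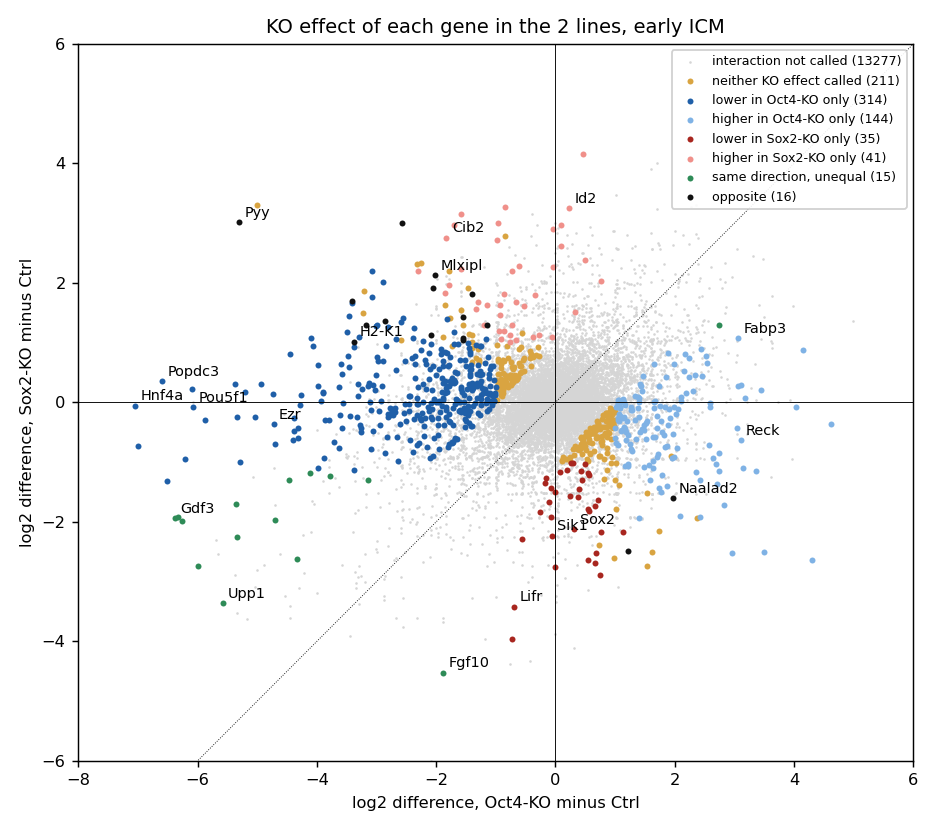
KO effect of every gene tested in the early ICM, with the log2 difference between Oct4-KO and Ctrl on the horizontal axis and that between Sox2-KO and Ctrl on the vertical axis; colours mark the classes of the 776 interaction genes and grey the genes without an interaction call, with equal effects on the dotted line. The 314 genes lower only in Oct4-KO form the arm to the left near 0 on the vertical axis, and the 16 opposite genes lie in the upper left and lower right.

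Genes lower in Oct4-KO but not called in Sox2-KO were led by Hnf4a (chr2:163506808-163572910), a nuclear receptor of endoderm and liver. Hnf4a was at 20.7 to 56.5 CPM (median 39.3) in Oct4 Ctrl and at 0 to 1.17 CPM (median 0) in Oct4-KO, where 7 of 8 embryos held no UMI. In Sox2 Ctrl it was at 15.2 to 57.1 CPM (median 26.1) and in Sox2-KO at 23.7 to 32.2 CPM (median 26.4), so that all Sox2-KO embryos lay inside the Ctrl range. Over the groups, 268 UMIs in Oct4 Ctrl stood against 1 in Oct4-KO, a level lower by 274-fold (95% interval 48.7 to 10849), counting error only. The interaction was -7.0 ± 0.72 (SE, adjusted p = 1.36e-12), and Hnf4a was called in all 13 alternative settings.

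Other named genes of this class had a range of roles. Dglucy, an enzyme of D-glutamate breakdown, was at 7.02 to 39.2 CPM (median 15.1) in Oct4 Ctrl and 0 to 1.21 CPM (median 0) in Oct4-KO, and at 8.3 to 67.7 CPM (median 20.8) and 1.07 to 28.2 CPM (median 13.2) in Sox2 Ctrl and Sox2-KO. Its Oct4 groups did not overlap, its Sox2 groups did, and the interaction was -5.26 ± 0.85 (adjusted p = 3.76e-06). Ezr, ezrin, which ties the membrane to actin, was at 247 to 388 CPM (median 283) in Oct4 Ctrl and 1.06 to 22.2 CPM (median 8.67) in Oct4-KO. In the Sox2 line Ezr was at 198 to 591 CPM (median 400) in Ctrl and 185 to 419 CPM (median 267) in KO, and the interaction was -4.36 ± 0.45 (adjusted p = 1.93e-12). The Oct4 groups stood wholly apart and the Sox2 groups overlapped. Ildr1, a protein of tricellular junctions, fell from 15.8 to 93.8 CPM (median 55.6) to 0 to 4.16 CPM (median 0) in Oct4-KO and stood at 25.9 to 133 CPM (median 60.2) and 40.5 to 117 CPM (median 78.5) in Sox2 Ctrl and Sox2-KO. Popdc3, a membrane protein of the Popeye family, held 96 UMIs over Oct4 Ctrl and none over Oct4-KO, at least 32.7-fold lower with 3 UMIs over the group taken as the floor. Its Ctrl level was lower in the Oct4 line, 2.34 to 24.9 CPM (median 12.6), than in the Sox2 line, 24.6 to 59 CPM (median 35.9), and this Ctrl difference was itself called. St3gal4, a sialyltransferase, was likewise absent from all Oct4-KO embryos, at least 19.7-fold lower, and also had a called Ctrl difference. The integrin genes Itga3 and Itga5 had smaller interactions, -2.54 ± 0.63 and -1.66 ± 0.51.

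Several pluripotency regulators were in this class. Esrrb, an orphan nuclear receptor of the naive network, was at 137 to 233 CPM (median 177) in Oct4 Ctrl and 19.9 to 68.3 CPM (median 36.1) in Oct4-KO, against 93.7 to 143 CPM (median 118) in Sox2 Ctrl and 65.8 to 89.1 CPM (median 75.6) in Sox2-KO. The KO and Ctrl embryos did not overlap in either line, but the Oct4-KO effect, -2.20 ± 0.23, was called and the Sox2-KO effect, -0.55 ± 0.22, was not (interaction -1.65 ± 0.32, adjusted p = 0.000134). Klf4, also a naive factor, was at 496 to 1073 CPM (median 639) in Oct4 Ctrl and 177 to 353 CPM (median 261) in Oct4-KO. Its Sox2-line values, 134 to 401 CPM (median 275) in Ctrl and 228 to 406 CPM (median 365) in KO, lay below those of Oct4 Ctrl at the median, a called Ctrl difference. Zfp57, which keeps imprints methylated, had an interaction of -2.88 ± 0.68, not called in 4 of the 13 other settings. Zfp57 lies 1.49 Mb from Pou5f1. Of 29 naive pluripotency genes tested, 13 were lower in Oct4-KO and 9 in Sox2-KO, and 6 had a negative and none a positive interaction. Over all genes tested, 6.11% were lower in Oct4-KO, 1.69% were lower in Sox2-KO, 3.42% had a negative and 2.11% a positive interaction. The median Oct4-KO effect of these 29 was -0.81 and the median Sox2-KO effect -0.40, beside 0.01 and -0.01 over all genes tested.

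Regulators of DNA methylation gave 6 lower and no higher interaction among 17 tested, against 3.42% lower and 2.11% higher over all genes, with a median Oct4-KO effect of -0.34 and a median Sox2-KO effect of 0.01. Uhrf1, which brings the maintenance methyltransferase to replicated DNA, was at 43.8 to 112 CPM (median 60.3) in Oct4 Ctrl and 2.22 to 15.4 CPM (median 7.92) in Oct4-KO. In the Sox2 line it was at 34.2 to 144 CPM (median 97.2) and 37.1 to 70.7 CPM (median 52.6), with a Sox2-KO effect of -0.78 ± 0.26 that was not called (adjusted p = 0.052). The Uhrf1 interaction was -2.32 ± 0.43 (adjusted p = 6.77e-05). Tet1, an oxidase of methylated cytosine, was at 180 to 520 CPM (median 311) in Oct4 Ctrl and 83.1 to 91.1 CPM (median 88.6) in Oct4-KO, below every Ctrl embryo, and overlapped between the Sox2 groups (interaction -1.59 ± 0.23). Uhrf2 and Tdg, a DNA glycosylase, had interactions of -1.96 ± 0.45 and -2.14 ± 0.61. Zfp57, given above, was also among the 6, and Mbd1 had neither KO effect called.

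Of 17 genes that mark PE and its precursors, 7 were lower and 2 higher in Oct4-KO, where 6.11% of all genes were lower and 4.77% higher, with a median effect of -1.10. In Sox2-KO none was lower and 1 higher, where 1.69% of all genes were lower and 1.57% higher, with a median effect of -0.05. The difference between these counts was not tested. Apoe, a lipid carrier, was at 111 to 272 CPM (median 182) in Oct4 Ctrl, 11 to 106 CPM (median 57.8) in Oct4-KO, 181 to 466 CPM (median 294) in Sox2 Ctrl and 235 to 593 CPM (median 348) in Sox2-KO. The Oct4 groups were apart and the Sox2 groups overlapped (interaction -2.03 ± 0.39, adjusted p = 0.000122). Pdgfra, the PE receptor kinase, had an interaction of -2.29 ± 0.65, and Sparc, a matrix protein, of -1.71 ± 0.50, which was lost without the Oct4 Ctrl embryo numbered 9 (adjusted p = 0.0595). Lamb1 and Hnf4a, also on this list, were lower, and Col4a2, a basement membrane collagen, was the 1 member with a positive interaction, 1.17 ± 0.39. The summed level of the 8 PE markers did not follow this pattern: 467 to 772 CPM in Oct4 Ctrl, 611 to 992 CPM in Oct4-KO, 99.7 to 743 CPM in Sox2 Ctrl and 352 to 763 CPM in Sox2-KO, with Foxa2 at 0 in all 4 groups. Of the 6 markers tested, 2 were lower in Oct4-KO, Sox17 and Pdgfra, and 1 higher, Dab2, beside the shares above. In Sox2-KO none was lower and 1 higher. Much of the sum lay in Gata6, not called (Oct4 medians 471 and 404 CPM), and Dab2, whose median rose from 62 CPM in Oct4 Ctrl to 421 CPM in Oct4-KO.

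Of 30 glycolysis and pyruvate genes 4 had a lower and none a higher interaction, and of 21 tricarboxylic acid genes 3 were lower and none higher, against 3.42% lower and 2.11% higher over all genes. Ldha, lactate dehydrogenase A, held 88 UMIs over Oct4 Ctrl and 3 over Oct4-KO, a level lower by 30-fold (95% interval 9.92 to 148). Its Sox2-line levels were 10.4 to 131 CPM (median 63.4) in Ctrl and 35.4 to 209 CPM (median 95.9) in KO, and the Ctrl difference between lines was called. Pck2, mitochondrial phosphoenolpyruvate carboxykinase, was at 8.51 to 48 CPM (median 17.4) in Oct4 Ctrl and 0 to 2.13 CPM (median 0) in Oct4-KO, and at 15.6 to 144 CPM (median 85.8) and 12.5 to 73.8 CPM (median 38.1) in Sox2 Ctrl and Sox2-KO. The Oct4-KO effect on Pck2 was -5.29 ± 0.65, the Ctrl difference was called, and the interaction was -4.29 ± 0.78. The Sox2-KO effect, -0.999 ± 0.293 (adjusted p = 0.0207), was also negative and missed the call only by the fold threshold. At the late ICM Pck2 was called lower in both KO groups, again with a negative interaction call. Aco1 and Idh1, cytosolic enzymes of the citrate branch, had interactions of -2.09 ± 0.34 and -1.52 ± 0.25, and Sdhd, a subunit of succinate dehydrogenase, of -1.59 ± 0.24. Among 25 glutathione genes 4 had a lower and none a higher interaction, against the same 3.42% and 2.11%: Gstm1, Mgst2 and Mgst3 were lower in Oct4-KO, and Gstm5, with 6 UMIs over Oct4 Ctrl and 1 over Oct4-KO, lost its call in 23 of 32 fits that left out 1 embryo.

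Components of the Wnt pathway gave 4 lower and no higher interaction among 23 tested, where 3.42% of all genes were lower and 2.11% higher. Sfrp1, a secreted Wnt antagonist, was at 25.7 to 58.4 CPM (median 37.6) in Oct4 Ctrl and 0 to 3.12 CPM (median 0.585) in Oct4-KO, and at 50.3 to 124 CPM (median 75.7) and 36.4 to 102 CPM (median 67.9) in Sox2 Ctrl and Sox2-KO. Its Oct4 groups were fully apart, its Ctrl levels differed by a call, and the interaction was -4.80 ± 0.63 (adjusted p = 1.29e-08). Fzd5, a Wnt receptor, and Tcf7l2, a transcription factor at the end of the pathway, had interactions of -1.70 ± 0.32 and -1.96 ± 0.40. Axin2, a feedback inhibitor and common readout of the pathway, had an interaction of -1.49 ± 0.44 with neither KO effect called.

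The promoters of 10094 of the tested genes were matched by symbol to RefSeq starts, as windows of 250 bases before to 50 after the start. The octamer ATGCAAAT was found on either strand in 1.7% of these genes, the SOX motif CATTGTT in 2.47% and the OCT-SOX core TTGTNATGC in 0.456%. Among 223 matched genes lower only in Oct4-KO the shares were 2.24%, 3.59% and 1.35%, and among 30 lower only in Sox2-KO they were 0%, 3.33% and 3.33%. These are 5, 8 and 3 genes, and 0, 1 and 1 gene. Among 97 matched genes higher only in Oct4-KO the shares were 3.09%, 0% and 0%, and among 30 higher only in Sox2-KO 6.67%, 3.33% and 0%. These are 3, 0 and 0 genes, and 2, 1 and 0 genes. Of the named genes lower only in Oct4-KO, 5 held a match: Hnf4a the OCT-SOX core, Srebf2 the octamer, and Pou2f1, Pou5f1 and Tcf7l2 the SOX motif. The RefSeq windows of Pou2f1 and Pou5f1 lie at starts inside the annotated gene and not at its outer end. The promoters of 3 are shown, 1 for each motif and chosen after the matches were seen, with the matched bases in capitals, 5′ to 3′ on the gene's strand (RefSeq, GRCm38.p6). The Hnf4a promoter, chr2:163506607-163506906 (+), holds the reverse complement of the OCT-SOX core 139 bases before the start. The Srebf2 promoter, chr15:82147019-82147318 (+), holds the octamer 196 bases before the start, and the Tcf7l2 promoter, chr19:55741560-55741859 (+), holds the SOX motif 103 bases before the start.
Hnf4a: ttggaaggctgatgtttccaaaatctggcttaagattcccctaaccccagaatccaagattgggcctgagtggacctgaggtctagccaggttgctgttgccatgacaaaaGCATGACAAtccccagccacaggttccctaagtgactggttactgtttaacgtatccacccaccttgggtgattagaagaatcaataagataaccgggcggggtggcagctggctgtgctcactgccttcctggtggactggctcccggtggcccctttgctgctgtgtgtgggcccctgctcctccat
Srebf2: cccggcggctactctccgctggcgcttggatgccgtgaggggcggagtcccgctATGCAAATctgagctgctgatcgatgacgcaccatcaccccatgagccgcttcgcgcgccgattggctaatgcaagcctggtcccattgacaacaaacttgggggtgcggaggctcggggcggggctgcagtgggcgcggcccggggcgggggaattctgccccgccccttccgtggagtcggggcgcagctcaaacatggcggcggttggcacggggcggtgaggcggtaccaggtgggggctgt
Tcf7l2: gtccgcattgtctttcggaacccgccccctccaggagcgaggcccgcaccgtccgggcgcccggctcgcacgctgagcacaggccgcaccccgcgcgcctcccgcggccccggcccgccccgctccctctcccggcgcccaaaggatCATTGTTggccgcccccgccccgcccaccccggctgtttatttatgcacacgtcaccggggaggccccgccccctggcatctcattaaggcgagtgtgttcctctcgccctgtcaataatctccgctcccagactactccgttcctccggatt
A match of letters is not a bound site, and binding was not measured here.

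Genes higher in Oct4-KO with no call in Sox2-KO included Fabp3, a fatty acid carrier. Fabp3 was at 113 to 787 CPM (median 317) in Oct4 Ctrl and 1550 to 4560 CPM (median 2386) in Oct4-KO, and at 39 to 110 CPM (median 81.8) in Sox2 Ctrl and 74.7 to 350 CPM (median 138) in Sox2-KO. The Oct4 groups did not overlap, and the Ctrl groups differed by a call. The Sox2-KO effect was also positive, 1.08 ± 0.37, but was not called (adjusted p = 0.058), and the interaction was 1.98 ± 0.51 (adjusted p = 0.00595). Reck, a membrane inhibitor of metalloproteases, rose from 0 to 4.75 CPM (median 2.42) to 8.19 to 44.8 CPM (median 20.6) in Oct4-KO and stood at 0 to 7.63 CPM (median 2.88) and 0 to 5.02 CPM (median 2.01) in Sox2 Ctrl and Sox2-KO (interaction 3.74 ± 0.75). Ak7, an adenylate kinase, was at 1.17 to 15.3 CPM (median 8.52) in Oct4 Ctrl and 9.37 to 110 CPM (median 33.6) in Oct4-KO, with the largest interaction of the class's named genes, 4.33 ± 0.82. Its Sox2-KO effect was -1.92 ± 0.72 (adjusted p = 0.0914), and a part of the interaction thus lay in a negative Sox2-KO effect that was not called. Car4, a membrane carbonic anhydrase, and Syp, a synaptic vesicle protein, lost their calls without the Sox2 Ctrl embryo numbered 2 (adjusted p = 0.0556 and 0.202), and Gsta2, a glutathione transferase, lost its call without any 1 of 3 Sox2 Ctrl embryos.

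Among the list genes higher in Oct4-KO, Phgdh, the first enzyme of serine synthesis, was at 62.9 to 187 CPM (median 113) in Oct4 Ctrl, 123 to 404 CPM (median 262) in Oct4-KO, 99.4 to 321 CPM (median 187) in Sox2 Ctrl and 43.3 to 218 CPM (median 118) in Sox2-KO. Its groups overlapped in both lines and the interaction was 1.52 ± 0.36 (adjusted p = 0.00224). Of the 23 serine and one-carbon genes tested, 2 had a positive and 2 a negative interaction, against 2.11% and 3.42% of all genes. Pim1, a kinase gene activated by Stat3, and Insig1, which holds sterol sensors in the endoplasmic reticulum, had interactions of 1.48 ± 0.39 and 1.82 ± 0.48, both with a called Ctrl difference. Pim1 lies 6.01 Mb from Pou5f1. Srebf2, the sterol-response factor, had an interaction of -2.01 ± 0.68 that was lost in 20 of the 32 fits that left out 1 embryo, and a called Ctrl difference. Hand1 and Cldn7, a trophoblast factor and a tight-junction protein, had positive interactions of 2.62 ± 0.69 and 1.10 ± 0.36. Among 29 TE genes tested, 9 were higher and 3 lower in Oct4-KO, against 4.77% and 6.11% of all genes, and 10 were higher and 1 lower in Sox2-KO, against 1.57% and 1.69%, with 4 negative and 3 positive interactions, against 3.42% and 2.11%. The medians were 0.55 in Oct4-KO and 1.39 in Sox2-KO.

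**Figure D2:**
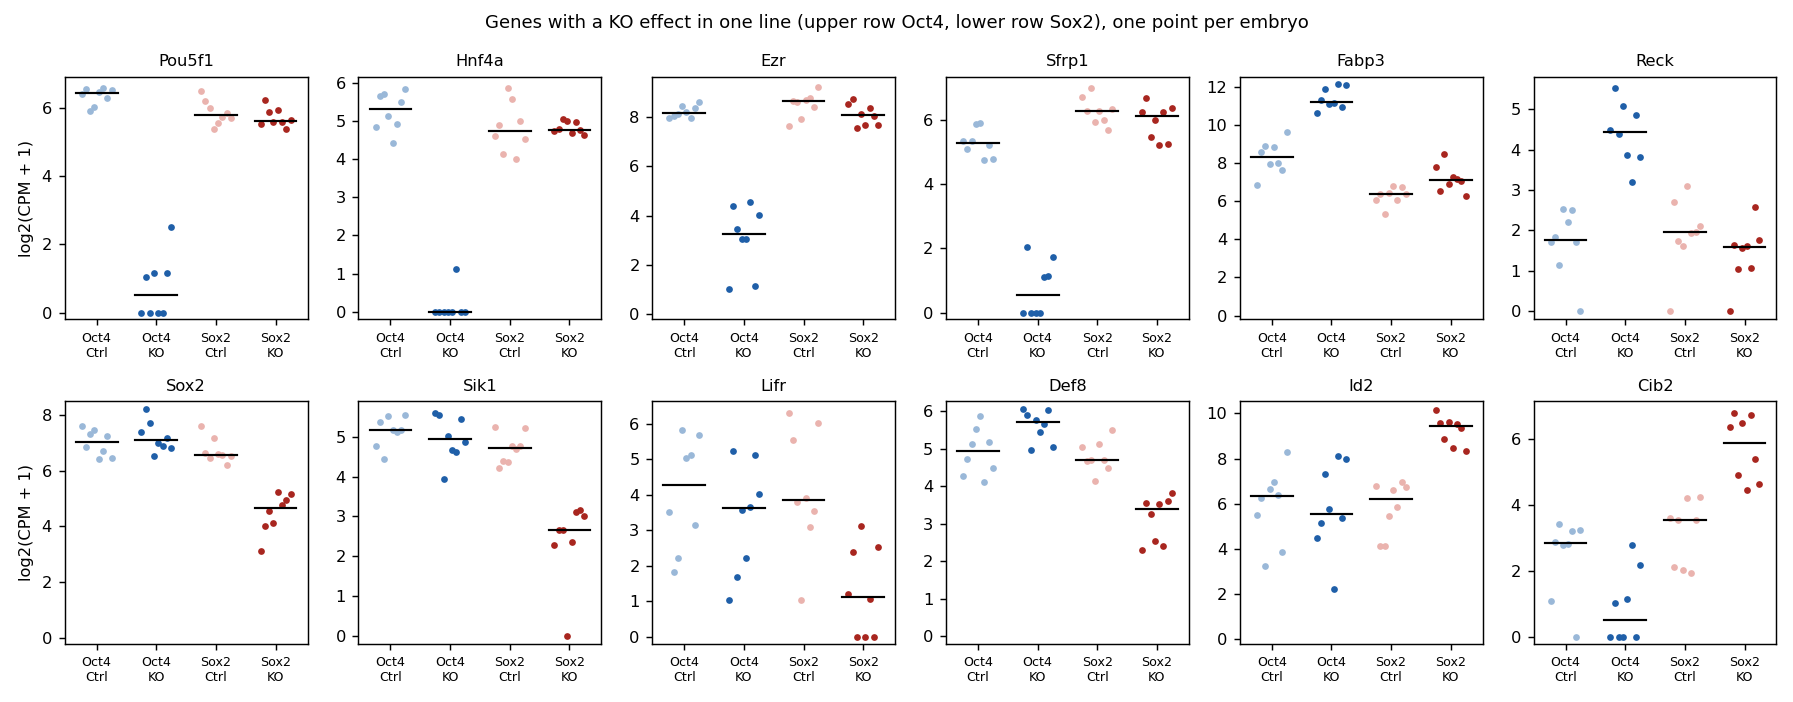
Level of 12 genes in each early ICM, on a log2(CPM + 1) scale, with 1 point per embryo, 8 embryos per group and the median as a bar; blue marks the Oct4 line and red the Sox2 line, Ctrl in the pale shade. In the upper row the Oct4-KO embryos are displaced from their Ctrl, as for Hnf4a, and the Sox2 groups overlap, and in the lower row the Sox2-KO embryos are displaced, as for Id2.

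Besides Sox2 itself, 34 genes were called lower in Sox2-KO with no call in Oct4-KO. Sik1, a salt-inducible kinase, was at 17.7 to 36.9 CPM (median 25.4) in Sox2 Ctrl and 0 to 8.03 CPM (median 5.36) in Sox2-KO, and at 20.7 to 45.8 CPM (median 35.2) in Oct4 Ctrl and 14.4 to 47.9 CPM (median 30) in Oct4-KO. All Sox2-KO embryos lay below all Ctrl embryos, the Oct4 groups overlapped, and the interaction was 2.17 ± 0.43 (adjusted p = 0.000265). Sik1 lies 3.65 Mb from Pou5f1. Def8, a lysosome-associated protein, moved from 16.6 to 44.2 CPM (median 24.8) to 3.87 to 13 CPM (median 9.49) in the Sox2 line and from 16.4 to 57.1 CPM (median 29.8) to 30 to 65.9 CPM (median 51.4) in the Oct4 line, where the effect was positive and below the fold threshold, 0.72 ± 0.21 (adjusted p = 0.00724). Syt9, a calcium sensor of secretion, fell by 3.96 on the log2 scale in Sox2-KO. Its Ctrl levels differed between the lines, 7.26 to 64 CPM (median 14.2) in the Sox2 line and 0 to 8.92 CPM (median 4.62) in the Oct4 line. Kcnk5, a potassium channel, and Fhod1, a formin, had interactions of 1.95 ± 0.48 and 1.82 ± 0.49.

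The receptor for leukaemia inhibitory factor, LIF, has the subunits Lifr and Il6st, whose early interactions were positive and negative. Lifr, the ligand-binding subunit, was at 1.04 to 78.8 CPM (median 13.6) in Sox2 Ctrl and 0 to 7.77 CPM (median 1.19) in Sox2-KO, and at 2.55 to 55.8 CPM (median 21) in Oct4 Ctrl and 1.06 to 36.4 CPM (median 11.3) in Oct4-KO. Lifr varied widely among Ctrl embryos, and its interaction, 2.73 ± 0.87 (adjusted p = 0.034), was lost in 12 of the 32 fits that left out 1 embryo. Il6st, the signalling subunit gp130, fell in both lines and further in Oct4-KO. It was at 5.75 to 44.8 CPM (median 16.4) in Oct4 Ctrl and 0 to 1.21 CPM (median 0) in Oct4-KO, and at 8.3 to 32.1 CPM (median 16.3) in Sox2 Ctrl and 0 to 5.83 CPM (median 2.2) in Sox2-KO (interaction -3.26 ± 0.93, adjusted p = 0.0156). The Il6st interaction was not called in 4 of the 13 other settings, among them limma on the rlog values (-0.43, adjusted p = 0.422), nor at the late ICM (-0.87 ± 0.62, adjusted p = 0.448). Over the 13 LIF and Stat3 genes tested, 1 interaction was negative and 2, Lifr and Pim1, were positive, against 3.42% and 2.11% of all genes, with a median interaction of -0.07.

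Genes higher in Sox2-KO and not called in Oct4-KO included Id2, an inhibitor of basic helix-loop-helix factors that is enriched in outer, trophectodermal cells. Id2 (chr12:25093799-25097140) was at 16.5 to 123 CPM (median 76.5) in Sox2 Ctrl and 326 to 1121 CPM (median 689) in Sox2-KO, with no overlap. In the Oct4 line it was at 8.51 to 309 CPM (median 79.1) in Ctrl and 3.67 to 275 CPM (median 46.9) in KO, with wide spread and overlapping groups. The Sox2-KO effect was 3.25 ± 0.54 (adjusted p = 8.38e-06), the Oct4-KO effect 0.22 ± 0.52 (adjusted p = 0.822) and the interaction -3.02 ± 0.74 (adjusted p = 0.00385). Cib2, a calcium- and integrin-binding protein, rose from 2.85 to 17.7 CPM (median 10.6) to 20.8 to 109 CPM (median 61.2) in Sox2-KO and stood at 0 to 9.72 CPM (median 6.23) and 0 to 5.85 CPM (median 0.52) in Oct4 Ctrl and Oct4-KO. Its interaction was -4.59 ± 0.85 (adjusted p = 7.24e-05), with a negative Oct4-KO effect, -1.83 ± 0.74, that was not called. Gpr4, a proton-sensing receptor, and Enpp1, an ectonucleotidase, also stood apart between Sox2-KO and Ctrl, with interactions of -2.97 ± 0.80 and -2.52 ± 0.78, and Gpr4 had a called Ctrl difference. Cck, the hormone cholecystokinin, and Trp53bp2, a partner of p53, had interactions of -4.11 ± 1.24 and -2.56 ± 0.60.

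Of the 16 genes with opposite effects, 14 were lower in Oct4-KO and higher in Sox2-KO and 2 the reverse. Mlxipl (chr5:135089890-135138382), the glucose-responsive factor ChREBP, was at 5.93 to 14.6 CPM (median 8.79) in Oct4 Ctrl and 0 to 7.78 CPM (median 0.585) in Oct4-KO. In the Sox2 line it rose from 0 to 30.5 CPM (median 7.75) in Ctrl to 24.5 to 79.5 CPM (median 33.5) in Sox2-KO. The Ctrl groups lay at similar medians and the KO groups moved apart, with effects of -2.02 ± 0.54 and 2.13 ± 0.37 (interaction -4.15 ± 0.65, adjusted p = 1.64e-06). Arntl, the clock factor Bmal1, was at 16.6 to 30.6 CPM (median 27.5) in Oct4 Ctrl and 3.33 to 10.4 CPM (median 5.48) in Oct4-KO, with no overlap, and at 2.46 to 26.6 CPM (median 16.1) and 16 to 71.2 CPM (median 32.2) in Sox2 Ctrl and Sox2-KO. Its effects were -2.08 ± 0.31 and 1.13 ± 0.26. H2-K1, a major histocompatibility class I heavy chain, was at 41.5 to 116 CPM (median 64.3) in Oct4 Ctrl and 1.22 to 11.4 CPM (median 5.36) in Oct4-KO, and at 98 to 180 CPM (median 118) and 138 to 374 CPM (median 217) in Sox2 Ctrl and Sox2-KO. Its effects were -3.37 ± 0.41 and 1.02 ± 0.28, it lies 1.51 Mb from Pou5f1, and reads of class I genes can be shared between near-identical copies. Mlxipl, Arntl, H2-K1 and Csta1 kept their interaction call in all 13 alternative settings.

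Of the other opposite genes, Csta1, a cysteine protease inhibitor, had effects of -3.41 ± 0.60 and 1.70 ± 0.41, and Nxpe3, of the neurexophilin family, of -2.05 ± 0.47 and 1.92 ± 0.35. Dst, a linker of cytoskeletal filaments, and Tspan3, a tetraspanin, were lower in Oct4-KO by 1.55 and 1.14 and higher in Sox2-KO by 1.08 and 1.30, in log2 units. Naalad2, a peptidase, went the other way: it was at 12.8 to 38 CPM (median 21.8) in Oct4 Ctrl and 37.4 to 170 CPM (median 80.4) in Oct4-KO, and at 3.32 to 48.8 CPM (median 12.9) and 0.972 to 12 CPM (median 5.05) in Sox2 Ctrl and Sox2-KO. The Naalad2 effects were 1.98 ± 0.31 and -1.60 ± 0.45, and the other gene of this direction, Gm10687, overlaps Mcam on the opposite strand. Pyy, the gut hormone peptide YY, had the largest interaction, -8.32 ± 1.75, but its Oct4 Ctrl level rested on 1 embryo, number 9, at 78.9 CPM where the next was at 2.55 CPM. Without that embryo the Pyy interaction was not called (adjusted p = 0.231), while its rise in Sox2-KO, from 0 to 36.4 CPM (median 1.68) to 11.9 to 195 CPM (median 38.1), does not involve the Oct4 line. Plac8 and Plac1, named for placental expression, Gsdmd, gasdermin D, Gyg, which primes glycogen, Dennd2d and Gm38100 made up the rest. The Ctrl groups differed by a call for Gsdmd, Plac1 and Tspan3, and Gsdmd held 8 UMIs over Oct4 Ctrl and none over Oct4-KO.

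**Figure D3:**
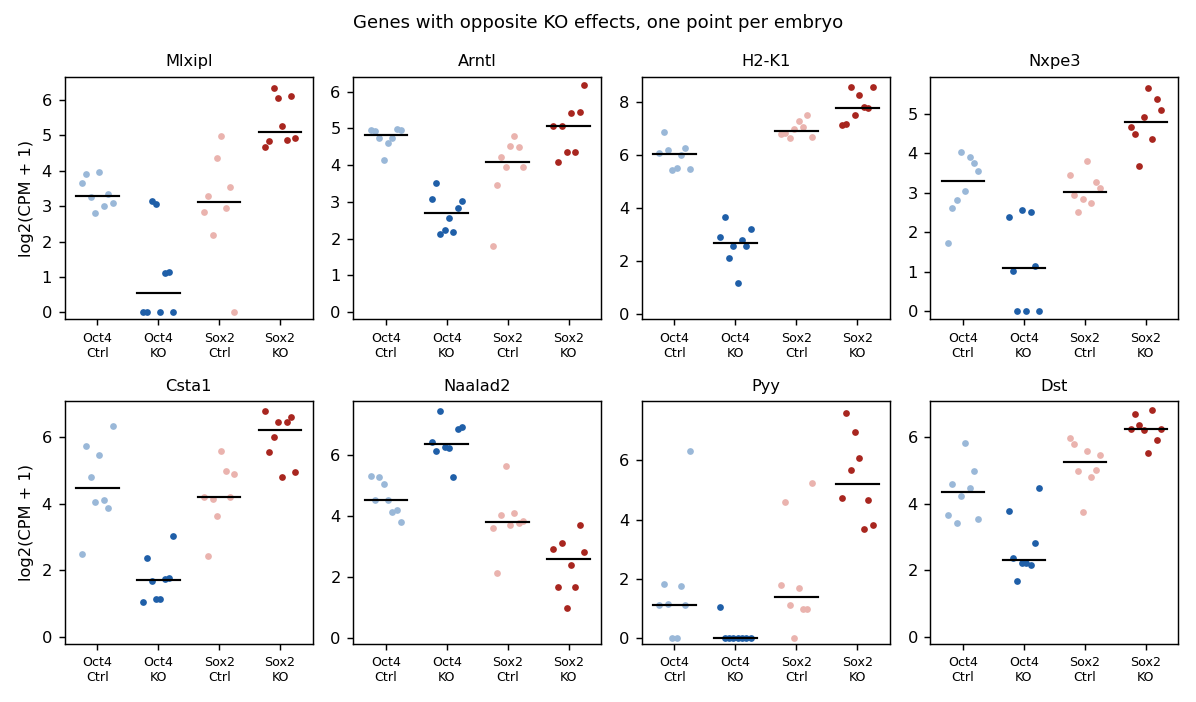
Level of 8 genes with opposite KO effects in each early ICM, on a log2(CPM + 1) scale, with 1 point per embryo, 8 embryos per group and the median as a bar; blue marks the Oct4 line and red the Sox2 line, Ctrl in the pale shade. In 7 panels Oct4-KO lies below and Sox2-KO above its Ctrl at the median, and in the Naalad2 panel the order is reversed, while the Pyy panel shows the single high Oct4 Ctrl embryo.

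Among the 15 genes that moved the same way by unequal amounts, 13 fell further in Oct4-KO, Fgf10 fell further in Sox2-KO, and Ptges rose further in Oct4-KO. Ptges, prostaglandin E synthase, rose in Oct4-KO from 13.8 to 119 CPM (median 33.8) to 187 to 543 CPM (median 304), and in Sox2-KO from 20.1 to 65.1 CPM (median 33.1) to 59.3 to 126 CPM (median 90.4) (interaction 1.44 ± 0.42). Gdf3, a TGF-beta family ligand, was at 12.2 to 87.4 CPM (median 48.2) in Oct4 Ctrl and 0 to 2.36 CPM (median 0) in Oct4-KO, and at 22.8 to 89.4 CPM (median 68.9) and 4.75 to 41.2 CPM (median 13.9) in Sox2 Ctrl and Sox2-KO. Tdgf1, Cripto, the co-receptor for such ligands, was at 123 to 476 CPM (median 319) in Oct4 Ctrl and 6.67 to 28.2 CPM (median 14.7) in Oct4-KO, and at 80.9 to 547 CPM (median 240) and 60.3 to 170 CPM (median 122) in Sox2 Ctrl and Sox2-KO. The Oct4 groups of Gdf3 and Tdgf1 stood apart and their Sox2 groups overlapped, with interactions of -4.43 ± 0.71 and -2.92 ± 0.44. Upp1, uridine phosphorylase, and Sap30, a subunit of the Sin3 repressor complex, fell in both lines with no overlap with Ctrl in either, with interactions of -2.22 ± 0.60 and -1.71 ± 0.51. Fgf10, a fibroblast growth factor ligand, was at 16 to 55.6 CPM (median 38.9) in Sox2 Ctrl and 0 to 6.45 CPM (median 0.486) in Sox2-KO, and at 15.8 to 72.9 CPM (median 41.2) and 1.22 to 34.3 CPM (median 4.59) in Oct4 Ctrl and Oct4-KO. Its interaction was 2.65 ± 0.79 (adjusted p = 0.0212), lost when either of 2 Oct4-KO embryos was left out.

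For some genes central to the ICM no difference between the lines could be called at the early ICM. Nanog, the core epiblast factor, was at 693 to 1077 CPM (median 923) in Oct4-KO and 677 to 1010 CPM (median 790) in Sox2-KO, overlapping 406 to 993 CPM (median 802) in Oct4 Ctrl and 574 to 1088 CPM (median 708) in Sox2 Ctrl. The Nanog interaction had a 95% interval of -0.54 to 0.76, while at the late ICM it was -1.27 ± 0.33 and called (adjusted p = 0.00618). Fgf4, the ligand from which epiblast precursors signal to PE precursors, fell in both lines, -2.10 ± 0.37 and -2.58 ± 0.36, with an interval of the difference of -0.55 to 1.51. Gata3, a trophectoderm factor, rose in both, 2.01 ± 0.33 and 2.14 ± 0.34, with an interval of -1.06 to 0.79. These intervals still hold differences between the lines as large as the bounds given.

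The same contrast was then read at other stages, in embryos that the choice of genes had not used as a contrast, although 1 model held all stages. At the late ICM, in 32 other embryos, 491 genes were lower (3.49%) and 395 higher (2.81%) by the interaction. Of the 480 genes lower at the early ICM, 179 (37.3%) were called lower again and 4 higher, and of the 296 higher genes 55 (18.6%) were called higher again and none lower. The sign was kept by 415 of 480 and 243 of 296, with median late interactions of -1.11 and 0.65 beside -0.01 over all genes. Across the 776 genes the early and late interactions had a Pearson r of 0.67, given as a description over genes from 1 fit. By class, 136 of the 314 genes lower only in Oct4-KO were called again with the same sign, 36 of 144, 8 of 35 and 5 of 41 in the other line-specific classes, and 9 of the 16 opposite genes. Of the genes with neither KO effect called, 32 of 211 were called again.

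Single genes followed different courses. Hnf4a stayed line-specific, at 10.7 to 31.7 CPM (median 21.4) in Oct4 Ctrl and 0 to 3.58 CPM (median 0.582) in Oct4-KO late ICMs and 14 to 55.6 CPM (median 17.5) and 23.1 to 48.8 CPM (median 27.6) in the Sox2 line (interaction -4.36 ± 0.61, adjusted p = 8.7e-08). Mlxipl stayed opposite, at 1.34 to 9.57 CPM (median 5.25) and 0 to 2.57 CPM (median 0.596) in Oct4 Ctrl and Oct4-KO and 2.36 to 17.7 CPM (median 6.85) and 49.9 to 88.1 CPM (median 66.8) in Sox2 Ctrl and Sox2-KO. For 4 of the 16 opposite genes both KO effects were called again with their early signs. The line difference of Id2 was not called again: its late effects were 1.67 ± 0.50 in Oct4-KO and 1.61 ± 0.50 in Sox2-KO, both called, with an interaction of 0.06 ± 0.69. Lifr likewise fell in both lines at the late ICM, -2.94 ± 0.53 and -2.72 ± 0.54. Uhrf1 was called lower in both there, -1.64 ± 0.30 in Oct4-KO and -1.09 ± 0.27 in Sox2-KO, with no interaction call (-0.54 ± 0.40). Syt9 also was, at -4.09 ± 0.54 and -3.88 ± 0.50, again with no interaction call. Elf5, a trophoblast factor, turned from an interaction of -5.07 ± 1.58, which rested on the Oct4 Ctrl embryo numbered 9 at 29.8 CPM (adjusted p = 0.429 without it), to 4.21 ± 1.10. At the morula, where 43 genes were lower (0.306%) and 7 higher (0.0498%), 16 of the 480 and 1 of the 296 were called with the early sign. The 16 include Pou5f1 itself, Ezr, Sfrp1 and Gdf3, and the 1 is Sox2 itself.

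**Figure D4:**
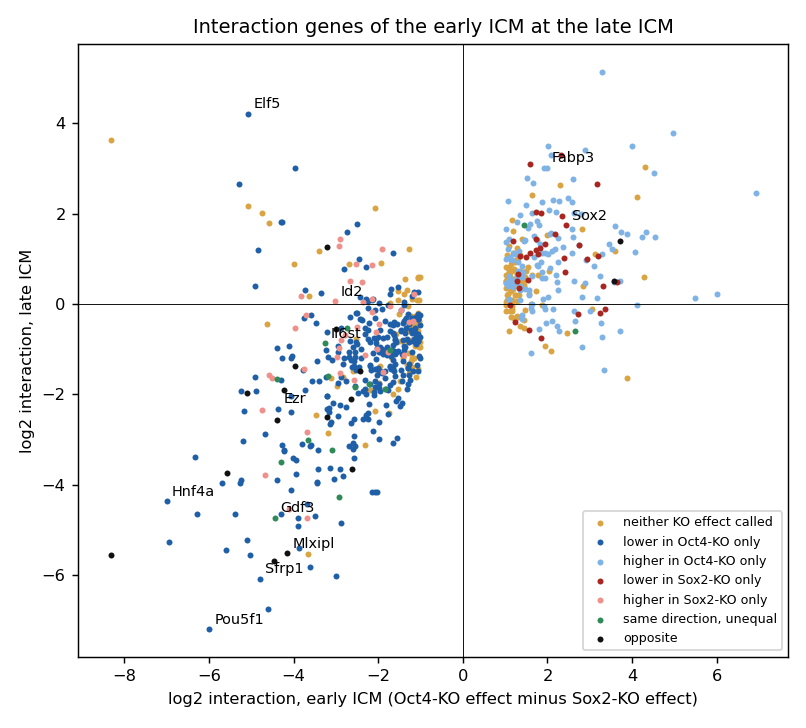
Log2 interaction of the 776 genes at the early ICM (horizontal axis) and at the late ICM (vertical axis), measured in separate embryos, with colours for the early classes. Most points fall in the lower left and upper right, 415 of 480 lower genes and 243 of 296 higher genes, with Elf5 among the exceptions.

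The counts over lists that follow stand against 3.42% of all genes with a negative and 2.11% with a positive interaction. Across the 25 gene lists, the lists on which no interaction was called were the formative epiblast, p53 target, Hippo and Tead, maternal oocyte and Y-linked lists. The POU family gave 3 negative interactions among 9 tested, Pou5f1, Pou2f1 at -1.40 ± 0.29 and Pou2f3 at -3.78 ± 0.83, and the Sox family 2 positive among 8, Sox2 and Sox13. Of 24 nuclear receptors 3 had a negative interaction, Hnf4a, Esrrb and Rxrg, and 1 a positive one, Ppard, 7.2 Mb from Pou5f1. Of 30 adhesion and surface genes 3 were negative and 1 positive, and of 33 Polycomb and Sin3 genes 1 was negative and 2, Ring1 and Pcgf1, positive. Ring1 lies 1.48 Mb from Pou5f1. The 21 Fgf and MAP kinase genes gave 1 negative interaction, Etv5, a target of this pathway, and 2 positive, Fgf3 and Fgf10, with the MEK inhibitor present in every group. The 20 Nodal, Bmp and Id genes gave 3 negative interactions, Id2, Gdf3 and Tdgf1. The 23 cholesterol synthesis genes had medians of -0.30 and -0.26 in Oct4-KO and Sox2-KO, with 1 negative and 2 positive interactions, while 12 of them were lower in Oct4 Ctrl than in Sox2 Ctrl, beside 754 of all 14053 genes. The Ctrl groups differ in which factor the mother lacked, and its part in this difference was not tested. The 25 lipid storage and transport genes gave 1 negative and 2 positive interactions, and the 19 integrated stress genes 1 positive, Phgdh.

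**Figure D5:**
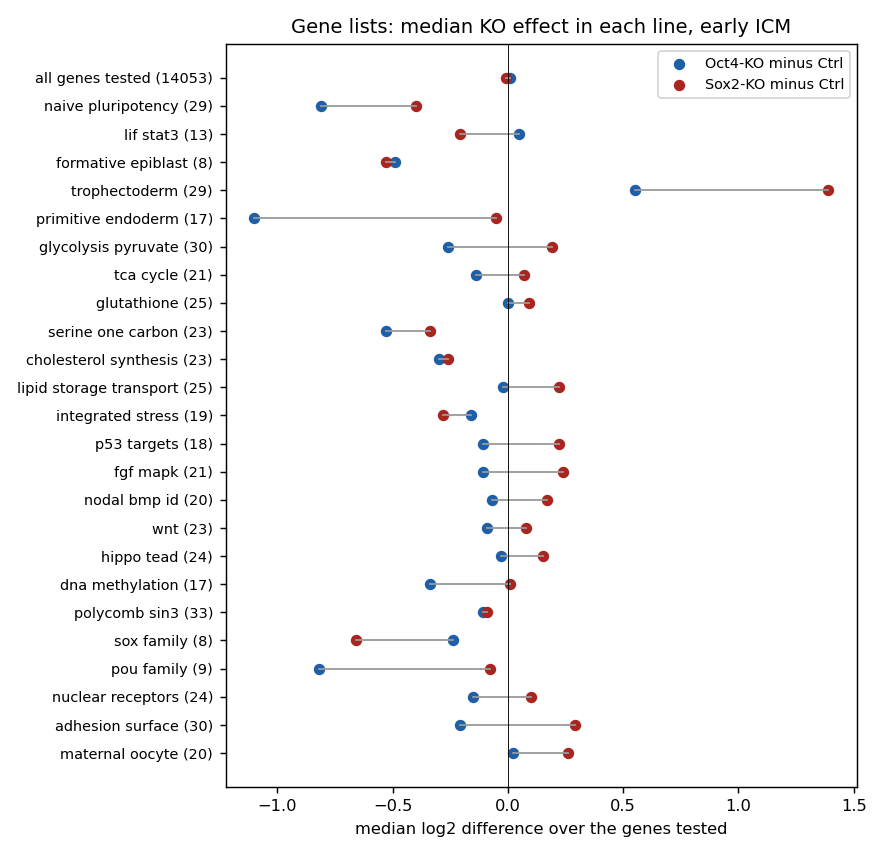
Median log2 KO effect over the genes tested of each list (their number in brackets) in Oct4-KO (blue) and Sox2-KO (red) early ICMs, with all 14053 genes at the top. The primitive endoderm list shows -1.10 against -0.05, and the trophectoderm list lies above 0 in both lines, at 0.55 and 1.39.

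Not every named interaction held when 1 of the 32 embryos was left out. The call was lost in 12 of 32 fits for Cldn7, 10 for Rxrg, 8 for Ppard, 5 each for Fgf3 and Ring1, 3 for Enpp1, 2 each for Itga5 and Sap30 and 1 for Cck. Col4a2, Dab2, Dennd2d, Fgf4, Gata3, Gata6, Gm10687, Gm38100, Gyg, Hand1, Klf4, Lamb1, Mbd1, Nanog, Ptges, Sox17, Tet1 and Upp1 lie outside the naming rule and were chosen after their values were seen. The Ctrl groups also differed by a call for Etv5, Itga5, Mgst2, Pou2f3, Ppard and Rxrg.

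Position near the targeted loci and sex were also read. Within 10 Mb of Pou5f1, 18 of 288 genes (6.25%) had an interaction, 5 lower and 13 higher, and 44 had a Ctrl difference. Over all genes 5.52% had an interaction, 3.42% lower and 2.11% higher, and 9.94% a Ctrl difference. Within 10 Mb of Sox2 it was 1 of 70 (1.43%, lower). On the X chromosome 28 of 432 genes (6.48%) had an interaction, beside the same 5.52%, and on the Y chromosome none of 6. Embryos with at least 10 Y-linked UMIs numbered 4 and 5 of 8 in Oct4 Ctrl and Oct4-KO and 3 and 3 in the Sox2 groups, and with a Y-linked term in the model 763 of the 776 genes were still called. Exons of Cib2, Dennd2d, Dglucy, Ezr, Fabp3, Fhod1, Pou2f1 and Tdg overlap those of a protein-coding gene on the other strand, so reads of the partner may be part of their values, and Ldha, Tdgf1, Phgdh, Fabp3 and Tdg have annotated pseudogenes.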

How the data were processed

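Each sample was 1 ICM or morula sequenced as a 3′ library with UMIs. The authors extracted UMIs with UMI-tools, trimmed reads with cutadapt, mapped them to mm10 with TopHat2 and to spike-ins with Bowtie2, assigned them to genes with featureCounts and counted unique transcripts with TRUmiCount. The deposited UMI counts per gene (29022 genes) were used, and the deposited log2 values, made by the authors with the rlog transformation of DESeq2, served 1 alternative. The strand setting is not given in the sources used here, so genes that overlap are uncertain.

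Genes with a UMI in at least a 0.5 share of the embryos of 1 stage were kept (14053). Counts of 96 embryos in 12 groups were scaled by TMM and fitted with edgeR 4.0.16 (quasi-likelihood test, R 4.3.3), with Benjamini-Hochberg adjustment over all genes tested. Every adjusted p in the text is from this test, every error of a log2 value is its SE, and 8 embryos made a group. Calls needed an adjusted p under 0.05 and an absolute log2 of at least 1. CPM were scaled by the total UMIs of each embryo. Alternatives were other scalings, filters, DESeq2 1.42.0, limma 3.58.1 on rlog values, other embryos and a replicate block. The interaction fit was also run on simulated counts, drawn independently for each embryo with the spread of the fit. Changes were set only in Oct4-KO early ICMs, so that run does not cover litters, outlier embryos or Sox2-KO effects.

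Named genes were Pou5f1, Sox2 and, from the called genes whose highest early ICM group averaged 20 CPM or more and which have a symbol that is no predicted gene, clone or pseudogene, the 6 largest interactions of each line-specific class with all KO embryos on one side of the Ctrl median, up to 12 opposite genes, 4 same-direction genes and up to 4 called members of each of 25 gene lists. The members and lists were chosen with earlier results of these data known. Intervals of ratios cover counting error only. Overlaps of exons and pseudogene names come from GENCODE vM21. Embryos labelled MWT were left out, and 1 named gene is not reported here.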

Additional observations from a re-analysis of the deposited data

Results flagged for a closer look

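The effect of KO differed between the lines for 776 genes, by the interaction test, and 16 of them moved in opposite directions. In 349 groups of 8 embryos, formed by the named genes and the 4 early ICM groups with over 3 UMIs, an embryo lay far from the other 7 by Dixon's criterion on the log2(CPM + 1) scale 31 times. Chance flags about 1 in 20 groups.

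The Sox2 Ctrl embryo numbered 2 stood highest for Cldn7 (229 CPM) and Syp (15.6 CPM) and lowest for Gstm1 (1.04 CPM), Sdhd (163 CPM), Tdg (3.11 CPM) and Trp53bp2 (1.04 CPM). The Sox2 Ctrl embryo numbered 10 was lowest for Arntl (2.46 CPM), Fhod1 (1.23 CPM), Me2 (0 CPM), Pdgfra (7.39 CPM) and Sox13 (13.5 CPM), and number 4 was lowest for Pcgf1 (1.09 CPM). The Oct4 Ctrl embryo numbered 9 was highest for Elf5 (29.8 CPM) and Pyy (78.9 CPM) and lowest for Msmo1 (19.2 CPM). Other Oct4 Ctrl embryos were lowest for Arntl (16.6 CPM) and Trp53bp2 (0 CPM).

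Among Oct4-KO embryos, single embryos were highest for Ildr1 (4.16 CPM), Pou5f1 (4.73 CPM) and Sparc (94.7 CPM) and lowest for Dgat1 (17 CPM), Tdg (0 CPM) and Tspan3 (1.11 CPM). Among Sox2-KO embryos they were highest for Enpp1 (69.2 CPM), Mgst3 (116 CPM) and Tdg (39.8 CPM) and lowest for Phgdh (43.3 CPM), Plac1 (3.12 CPM), Pou2f3 (4.75 CPM), Sik1 (0 CPM) and Tspan3 (98.5 CPM).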

How the results depend on the processing

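The 776 interaction calls (296 higher, 480 lower) numbered 773 with RLE scaling, 771 with library totals, 687 with no filter on low counts, 698 with a filter at 10 CPM, 781 in the 32 early ICMs alone, 800 with a Y-linked term and 838 with DESeq2 (2452 adjusted p not given by it), and no count of a class moved by over 1.5 times under these. Of the 776, 769 were shared with RLE scaling and 725 with DESeq2. Leaving out 1 embryo gave 632 (without the Sox2 Ctrl embryo numbered 2) to 830, with 12 to 20 opposite genes. No result turned its direction.

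With no fold-change minimum 1141 genes were called, with 462 higher, 309 higher only in Oct4-KO, 73 lower and 80 higher only in Sox2-KO, 52 opposite and 38 same-direction. Tested against a log2 difference of 1 (glmTreat), 104 were called, 16 higher and 88 lower, with 68 lower and 9 higher only in Oct4-KO, 1 lower and 2 higher only in Sox2-KO, 1 same-direction and 0 opposite, where 965 genes had an unadjusted p under 0.05 and DESeq2 called 16 opposite. This test asks for more than the fold threshold. With limma on the rlog values 535 were called, with 162 lower only in Oct4-KO, 17 lower only in Sox2-KO, 5 opposite and 4 same-direction, and the cause was not tested.

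Embryo numbers shared by Ctrl and KO of a line gave 12 embryos in 2 and 4 pairs. Same-numbered embryos had correlations of deviations from -0.0884 to 0.235. Of 8 embryos in the Sox2-line pairs, 3 correlated best with their own number. The labels do not say what the number stands for, and whether same-numbered embryos share a litter or batch was not tested. With the replicate block 373 genes were called, 107 higher and 266 lower, with 141 lower and 60 higher only in Oct4-KO, 22 lower only in Sox2-KO and 9 same-direction, of which 215 in all were among the 776. The same embryos with no replicate block gave 119, 19 higher and 100 lower, with 71 lower and 11 higher only in Oct4-KO, 5 lower and 13 higher only in Sox2-KO, 5 opposite and 1 same-direction, from fewer embryos.

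A pair of alternatives was chosen after seeing the data. Without the Sox2 Ctrl embryo numbered 2 and the Oct4 Ctrl embryo numbered 9, 564 were called, 190 higher, with 23 lower only in Sox2-KO. Keeping only genes whose Ctrl groups did not differ by a call left 655. Of 93 named genes, 69 kept their call in all 32 fits that left out 1 embryo and 15 in the other 13 settings. Depth limits genes with few UMIs, and the labels do not separate litter or sequencing batch from group.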
